A study of Mus musculus with 6 samples.

Results

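The genes described here encode matricellular and elastic matrix proteins: *Cilp*, *Cilp2*, *Fn1*, *Tnc*, *Thbs1*, *Thbs2*, *Postn*, *Sparcl1*, *Fbn1* and *Eln*. They are 10 of the 54525 gene rows in the count data and were chosen by name, with earlier results of these data known. *Cilp* was included because it rose from almost no counts in myoblasts, so the values of *Cilp* are a description without a test. RNA-seq was performed on C2C12, an established clonal line of mouse myoblasts, which fuse into multinucleated myotubes when serum is lowered. There were 3 libraries of wild-type (WT) myoblasts at day 0 (D0) in growth medium and 3 libraries of WT cells after 5 days of differentiation (D5). All 6 libraries carry the treatment label None and the cell type label of muscle myoblasts, also at D5. The growth medium held fetal bovine serum and the differentiation medium held less, horse serum, so that days, medium and differentiation changed together and their parts cannot be told apart. The labels give 3 cultures for each day but not whether these came from separate passages. The p-values set the difference between days against the variation among these libraries, and may be too small if the cultures were not independent. All cells come from a single line in culture.

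Matricellular proteins are secreted into the matrix around cells and bind cell surface receptors, growth factors and other matrix proteins, mostly without forming load-bearing fibres themselves. Thrombospondins, tenascins, periostin and the SPARC family belong to this group, and several of them are known to appear in muscle during development and repair. Fibronectin forms fibrils that cells hold through integrins, whereas elastic fibres consist of an elastin core laid onto fibrillin microfibrils. Cartilage intermediate layer protein, the product of *Cilp*, was named for its place in cartilage and is known to bind TGF-beta.

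Counts are reads assigned to a gene, CPM are counts per 1000000 scaled between libraries by TMM (edgeR's trimmed mean of M-values), and TPM are counts per exonic length scaled to the same total in each library, used to compare levels between genes. Values are mean ± SD with n = 3 libraries. Fold changes are D5 against D0 on the TMM scale, and were tested with the quasi-likelihood method of edgeR, with Benjamini-Hochberg adjustment over all 16290 genes that passed edgeR's filter on low counts. In bulk RNA, a change in the number of cells of a type and a change in RNA per cell cannot be told apart. Gene counts do not separate the splice isoforms of *Fn1* and *Tnc*.

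The D0 libraries held from 36555048 to 40895840 counts on genes and the D5 libraries from 25449759 to 25811300. In all, 6869 genes were higher and 6641 lower at D5, and the same test gave 3353 higher and 10953 lower without scaling and 1813 higher and 3747 lower with scaling to the ERCC spike-ins. The fit without scaling leaves the lower depth of the D5 libraries in every fold change. The ERCC share was 1.20%, 0.720% and 2.09% of counts in the 3 D5 libraries, so scaling to the spike-ins is imprecise. Muscle markers moved with the day: *Myog*, *Mymk*, *Ckm*, *Acta1*, *Tnnt3*, *Myh3* and *Des* rose, while *Myod1*, *Myf5* and *Pax7*, genes of myoblasts and satellite cells, fell, and the summed level of these 10 genes went from 2358 to 2460 CPM at D0 to 15389 to 16249 CPM at D5. The D5 libraries thus had the markers of myotubes although their label names myoblasts. A short abundant RNA, *Rn7sk*, took from 9.79% to 10.5% of TPM at D0 and from 13.1% to 14.2% at D5, which lowers all other TPM at D5 slightly, so changes are given from CPM.

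The upstream sequences of the members are shown first because *Cilp* was nearly silent at D0 and high at D5, whereas *Tnc*, *Postn* and *Thbs2* were lower at D5. RefSeq windows on GRCm38.p6 matched 6 of the 10 members (*Cilp*, *Cilp2*, *Tnc*, *Thbs2*, *Postn* and *Fbn1*). These members had 8 windows in all, with more than 1 for *Tnc* and for *Postn*. The windows of *Fbn1* and *Cilp2* lay wholly within annotated exons and are not printed. For each of the others 1 window is printed. The 250 bases before a start site are printed 5′ to 3′ on the strand of the gene, in lower case with E-boxes (CANNTG, the letters bound by MyoD, myogenin and other basic helix-loop-helix factors) in capitals.
Cilp, chr9:65264930-65265179, plus strand: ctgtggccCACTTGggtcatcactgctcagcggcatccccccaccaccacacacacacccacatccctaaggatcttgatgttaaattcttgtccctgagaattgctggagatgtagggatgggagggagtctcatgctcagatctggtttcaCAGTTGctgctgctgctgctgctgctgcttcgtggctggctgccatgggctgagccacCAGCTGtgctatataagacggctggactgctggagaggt
Tnc, chr4:64047016-64047265, minus strand: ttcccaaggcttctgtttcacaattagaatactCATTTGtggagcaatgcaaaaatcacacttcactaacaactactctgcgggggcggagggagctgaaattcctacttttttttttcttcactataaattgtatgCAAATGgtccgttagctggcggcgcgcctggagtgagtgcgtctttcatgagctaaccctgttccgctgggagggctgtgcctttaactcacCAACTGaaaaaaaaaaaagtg
Postn, chr3:54360857-54361106, plus strand: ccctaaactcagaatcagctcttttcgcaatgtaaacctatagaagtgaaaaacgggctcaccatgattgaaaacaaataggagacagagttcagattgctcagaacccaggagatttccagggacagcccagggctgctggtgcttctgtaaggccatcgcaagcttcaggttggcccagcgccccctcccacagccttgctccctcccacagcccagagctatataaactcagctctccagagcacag
Thbs2, chr17:14694263-14694512, minus strand: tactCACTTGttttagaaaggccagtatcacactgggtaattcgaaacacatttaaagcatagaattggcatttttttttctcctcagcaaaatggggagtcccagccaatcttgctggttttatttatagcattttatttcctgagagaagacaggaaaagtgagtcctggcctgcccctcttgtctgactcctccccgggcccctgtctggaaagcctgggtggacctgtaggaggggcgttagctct

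The *Cilp* window held 3 E-boxes, whose first bases lay 242, 97 and 39 bases before the start site, and the nearest of them was CAGCTG. The *Tnc* window also held 3, at 217, 113 and 21 bases, together with the letters TATAAA at 126 bases. The *Thbs2* window held 1 E-box at 246 bases, TATAAA on the opposite strand at 126 bases, and an overlapping match to the MEF2 motif at 129 bases. The *Postn* window held no E-box and had TATAAA at 26 bases. Both strands were searched, and CANNTG includes CAGCTG. Of the 32851 RefSeq windows of the same length, 66.2% held CANNTG, 13.0% CAGCTG, 12.4% TATAAA and 1.69% the MEF2 motif. Among the 6 members with a window, 4 held CANNTG, 1 held CAGCTG, 3 held TATAAA and 1 held the MEF2 motif in any of their windows. These counts are per gene and include the exonic windows of *Fbn1* and *Cilp2*, whereas the shares are per window. The other *Postn* window had no TATAAA. The letters TGANTCA (the AP-1 motif, in 6.75% of all windows), GGAATG (the TEAD motif, in 12.6%) and the CArG motif (in 1.47%) were in none of the 6 members. An E-box was thus present in genes that were higher and in genes that were lower at D5, and these matches are descriptions of letters, not of binding.

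Of the 10 members, 9 passed the filter on low counts and *Sparcl1* did not. *Cilp*, *Cilp2* and *Eln* passed it only through their D5 counts, with at most 1, 6 and 2 counts in any D0 library, so that a difference was built into their selection and their values are given without a test. The other 6 had at least 10 counts in every library. Of these, *Thbs1* and *Fbn1* were higher and *Fn1*, *Tnc*, *Thbs2* and *Postn* lower at D5, and the libraries of D0 and D5 did not overlap for any of the 6. Among all genes tested 82.9% passed the test, 42.2% higher and 40.8% lower, and 83.3% did not overlap, 42.2% higher and 41.1% lower, so a call by itself was common. An absolute log2 fold change of at least 2 was seen in 4 of the 6 (*Thbs1*, *Fbn1*, *Tnc* and *Postn*), beside 10.1% of the 13713 genes with at least 10 counts in every library and 16.8% of all genes tested. The members were chosen with earlier results of these data known, so these shares are a description and not a test. The directions of the 6 calls were the same under every scaling, filter and left-out library tried.

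**Figure D1:**
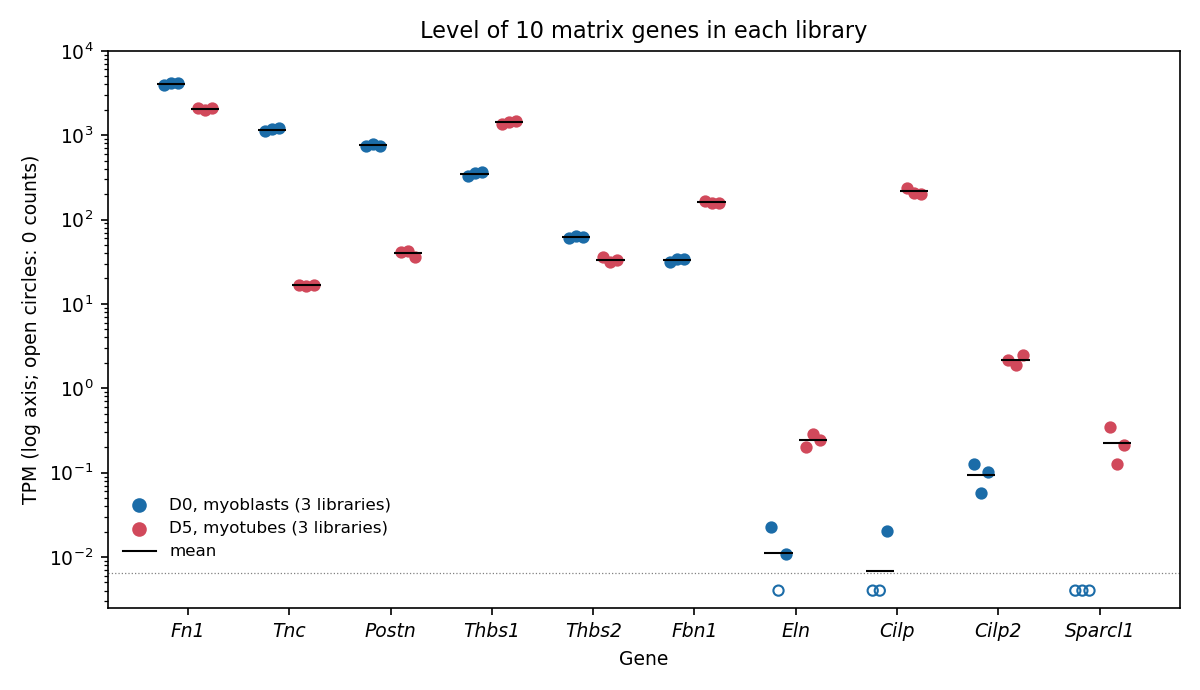
Level of each of the 10 genes in TPM (log axis) in the 3 D0 and 3 D5 libraries. Each point is a library, bars mark group means, and open circles under the dotted line are libraries with 0 counts. *Fn1*, *Tnc*, *Postn* and *Thbs2* are lower at D5 and *Thbs1*, *Fbn1*, *Cilp* and *Cilp2* higher.

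*Cilp* (ENSMUSG00000042254.14, chr9:65265180-65280605, plus strand, 11 exons after merging of transcripts) was counted 0, 0 and 1 times in the D0 libraries and 7919, 7141 and 6919 times in the D5 libraries. A single read in D0 replicate 3 was thus the whole signal in myoblasts, against 21979 reads in myotubes. The ratio of these summed counts, corrected for library size, was 35269, with an exact 95% interval from 6329 to 1.39e+06 that covers counting error only. In CPM the D5 level was 294 ± 19.0. In TPM the D5 libraries had 235, 208 and 202, which ranked *Cilp* 546, 608 and 635 among all genes of each library. *Cilp* had the largest fitted log2 fold change of the 16290 genes tested, 14.56. Without D0 replicate 3, the library with the single read, no D0 read was left. The fitted value of 16.14 then depends on the small count that edgeR adds, and is not an estimate of size. Among the 480 genes tested that had at most 3 counts in every D0 library, *Cilp* had the highest CPM at D5. These ranks describe the value for which the gene was chosen.

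The 5 genes whose levels were most like those of *Cilp* over the 6 libraries, by the Euclidean distance of log2(CPM + 0.5), were *Col6a2*, *Pgm5*, *Myh7*, *Casq1* and *Mb*. *Col6a2*, a collagen VI chain, was nearest, at a distance of 0.342, with 2, 1 and 1 counts at D0 and 6697, 6308 and 6793 counts at D5. *Pgm5*, which encodes a protein of cell-matrix junctions related to phosphoglucomutase, followed at 0.669 and the slow myosin heavy chain gene *Myh7* at 0.707. *Casq1*, which encodes a calcium-binding protein of the sarcoplasmic reticulum, was at 0.865, and *Mb*, which encodes myoglobin, at 1.32.

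The paralog *Cilp2* (ENSMUSG00000044006.8, chr8:69880369-69887687, minus strand) was counted 6, 3 and 5 times at D0 and 73, 65 and 87 times at D5. It was low in both groups. The CPM level went from 0.119 ± 0.0447 to 3.01 ± 0.440, with a fitted log2 difference of 4.64. The ratio of summed counts was 25.8, with an exact 95% counting interval from 15.1 to 47.9. In TPM, *Cilp* stood 110, 111 and 80.7 times above *Cilp2* in the 3 D5 libraries. *Cilp* and *Cilp2* shared 0% of 50-base stretches of their transcripts, so no stretch of that length matches both exactly.

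*Fn1* (ENSMUSG00000026193.15, chr1:71585520-71653200, minus strand) encodes fibronectin and was the most abundant of the 10 genes in both groups. It was counted 511628, 581593 and 557886 times at D0 and 192870, 189465 and 196734 times at D5, or 3974, 4106 and 4156 TPM against 2084, 2007 and 2085 TPM. The myotube libraries were all lower and the groups were far apart compared with their spread. At D0 *Fn1* ranked 13 by TPM in every library, and at D5 it ranked 34, 37 and 33. Its mean share of all gene counts was 1.42% at D0 and 0.753% at D5. The CPM level went from 13782 ± 108 to 7758 ± 130, so myotubes kept 56.3% of the D0 level (log2 difference -0.83, SE 0.03, adjusted p = 8.93e-20 by edgeR). The size depended on the scaling. The log2 difference was -1.51 without scaling, which leaves in the lower depth at D5, and -1.40 with the ERCC spike-ins, whose share varied between D5 libraries. The median of all genes was -0.68 and -0.58 in these fits. The levels most like those of *Fn1*, by the same distance, were those of *H19* (1.71), *Rn7sk* (1.84), *mt-Co1* (2.46), *Eef1a1* (2.53) and *Malat1* (3.23), which are abundant RNAs. They were near *Fn1* in abundance and mostly not in direction. The mean CPM of *H19*, *Rn7sk*, *mt-Co1* and *Malat1* was higher at D5, and only that of *Eef1a1* was lower.

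Tenascin-C, encoded by *Tnc* (ENSMUSG00000028364.15, chr4:63959785-64047015, minus strand), is a large matricellular protein that modulates adhesion to fibronectin. *Tnc* was counted 94643, 111156 and 107783 times at D0 and 1041, 1032 and 1064 times at D5. It was among the more abundant genes of myoblasts, with TPM ranks of 86, 79 and 72, and fell to ranks from 6846 to 6970 in myotubes. In TPM the level went from 1164 ± 52.8 to 16.8 ± 0.289. The CPM level fell from 2616 ± 78.9 to 42.0 ± 0.674, to 1.61% of D0 (log2 difference -5.96, SE 0.04, adjusted p = 3.49e-39 by edgeR). Among all genes tested it had rank 53 from the lowest log2 fold change.

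Periostin, encoded by *Postn* (ENSMUSG00000027750.16, chr3:54361109-54391037, plus strand), is a secreted integrin ligand that associates with collagen, fibronectin and tenascin-C. *Postn* was counted 72194, 82288 and 73600 times at D0 and 2874, 3016 and 2537 times at D5. All myotube libraries lay far below all myoblast libraries. The TPM level went from 756 ± 22.1 to 40.2 ± 3.62. In CPM it fell from 1904 ± 67.8 to 113 ± 10.3, to 5.93% of D0 (log2 difference -4.08, SE 0.05, adjusted p = 5.21e-34 by edgeR). Its coefficient of variation at D5 was 9.11%, against a median of 3.02% for genes with a mean of at least 1000 counts.

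The thrombospondin pair moved in opposite directions. Thrombospondin-1 and thrombospondin-2 are trimeric matricellular proteins that share receptors such as CD36 and CD47, and thrombospondin-1 is also known to activate latent TGF-beta. *Thbs1* (ENSMUSG00000040152.8, chr2:118111876-118127133, plus strand) was counted 22198, 25895 and 25291 times at D0 and 65565, 70585 and 72028 times at D5. The D5 counts were higher in every library although those libraries were shallower. The TPM level went from 349 ± 15.6 to 1423 ± 54.7, and the CPM level rose 4.56-fold from 612 ± 18.0 to 2790 ± 156 (log2 difference 2.19, SE 0.04, adjusted p = 1.74e-29 by edgeR). With the ERCC spike-ins the log2 difference was 1.62.

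*Thbs2* (ENSMUSG00000023885.9, chr17:14665500-14694235, minus strand) was counted 4607, 5416 and 4961 times at D0 and 1975, 1779 and 1884 times at D5. It was lower than *Thbs1* in every library, and its D5 values lay below its D0 values. The TPM level went from 61.7 ± 2.05 to 33.5 ± 2.08. In CPM *Thbs2* fell from 125 ± 3.31 to 75.5 ± 3.23, to 60.4% of D0 (log2 difference -0.73, SE 0.04, adjusted p = 2.73e-17 by edgeR), and with the ERCC spike-ins the log2 difference was -1.31 with an adjusted p of 0.039. A ratio within a library does not depend on scaling between libraries. The TPM of *Thbs1* over that of *Thbs2* was 5.56, 5.51 and 5.88 at D0 and 38.3, 45.8 and 44.1 at D5, a 7.54-fold difference. The ratio was higher in all 3 myotube libraries than in any myoblast library. The pair shared 0% of 50-base stretches with each other and with *Thbs3*, *Thbs4* and *Comp*.

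Fibrillin-1, encoded by *Fbn1* (ENSMUSG00000027204.13, chr2:125300594-125507993, minus strand), is the main building block of microfibrils. *Fbn1* was counted 4234, 5016 and 4718 times at D0 and 15810, 15389 and 15459 times at D5. Every myotube library was above every myoblast library, with little spread. The TPM level went from 33.2 ± 1.34 to 160 ± 4.12, and the CPM level rose 5.36-fold from 116 ± 3.19 to 625 ± 4.07 (log2 difference 2.42, SE 0.03, adjusted p = 3.49e-32 by edgeR). Unscaled, the log2 difference was 1.74. The gene *Gm9913* on the opposite strand overlaps 20.1% of the exonic length of *Fbn1*, and it had from 5 to 16 counts per library.

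Elastin, encoded by *Eln* (ENSMUSG00000029675.12, chr5:134702593-134747323, minus strand), forms the core of elastic fibres. *Eln* was counted 2, 0 and 1 times at D0 and 13, 19 and 16 times at D5, so it stayed near the limit of detection in both groups. The summed counts differed 25.7-fold, with an exact 95% counting interval from 8.27 to 129. The fitted log2 difference was 4.48, and it was 5.31 without D0 replicate 1. In TPM, *Fbn1* stood 812, 541 and 645 times above *Eln* in the D5 libraries.

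*Sparcl1* (ENSMUSG00000029309.7, chr5:104079111-104113733, minus strand) encodes SPARC-like 1, a relative of SPARC that binds collagen. It was counted 0 times in all 3 D0 libraries and 8, 3 and 5 times at D5. Set against a floor of 3 counts over the 3 D0 libraries, the D5 level of *Sparcl1* was 8.56-fold higher. This value leaves out the counting error of the D5 reads and is not a lower bound. These 16 reads are few, and the gene was under the filter and not tested.

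**Figure D2:**
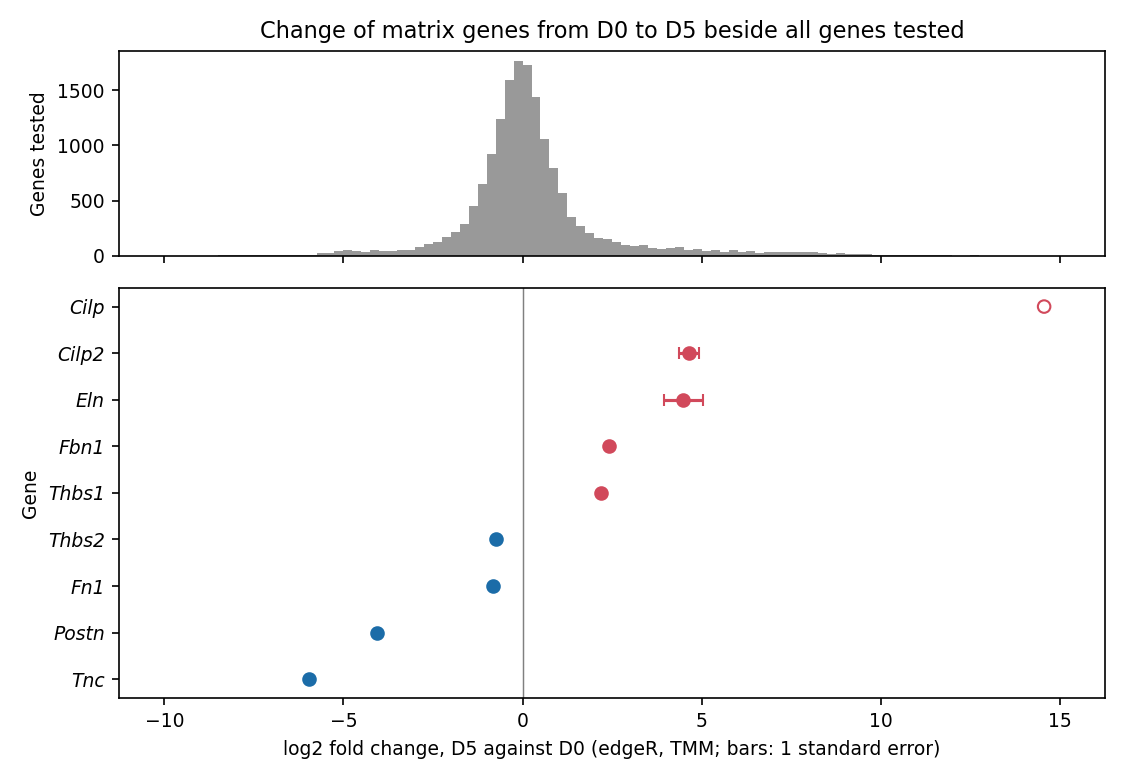
Distribution of log2 fold changes (D5 against D0) of the 16290 genes tested, above, and the fitted log2 fold change of the 9 members that passed the filter, below. Bars are the SE computed from the F statistic of the test. *Cilp* is drawn as an open circle without a bar because it was chosen for its rise and not tested. *Cilp2* and *Eln* passed the filter only through D5, so their bars are not to be read as a test. *Tnc* (-5.96) and *Postn* (-4.08) lie far to the left, *Fn1* and *Thbs2* near the middle, and *Cilp2*, *Eln*, *Fbn1* and *Thbs1* between 2.19 and 4.64.

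The order of the members by TPM differed between the groups. At D0 the order was *Fn1*, *Tnc*, *Postn*, *Thbs1*, *Thbs2*, *Fbn1* and *Cilp2*, each separated from the next in all libraries, while *Eln*, *Cilp* and *Sparcl1* at the bottom overlapped. At D5 it was *Fn1*, *Thbs1*, *Cilp*, *Fbn1*, *Postn*, *Thbs2*, *Tnc* and *Cilp2*, again without overlap between neighbours, though the lowest *Postn* library (36.1 TPM) and the highest *Thbs2* library (35.6 TPM) were close. *Eln* and *Sparcl1* overlapped at D5.

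The 10 genes together took from 1.94% to 1.99% of gene counts at D0 and from 1.12% to 1.16% at D5. Of their summed TPM, *Fn1* held a mean of 63.3% at D0 and 52.1% at D5. *Tnc* went from 18.1% to 0.424% and *Postn* from 11.7% to 1.02%, while *Thbs1* went from 5.41% to 36.04%. *Fbn1* went from 0.516% to 4.05%, and *Cilp* held 5.44% at D5. Fibronectin, tenascin-C and periostin RNA thus made up most of the sum in myoblasts, and fibronectin and thrombospondin-1 RNA most of it in myotubes.

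**Figure D3:**
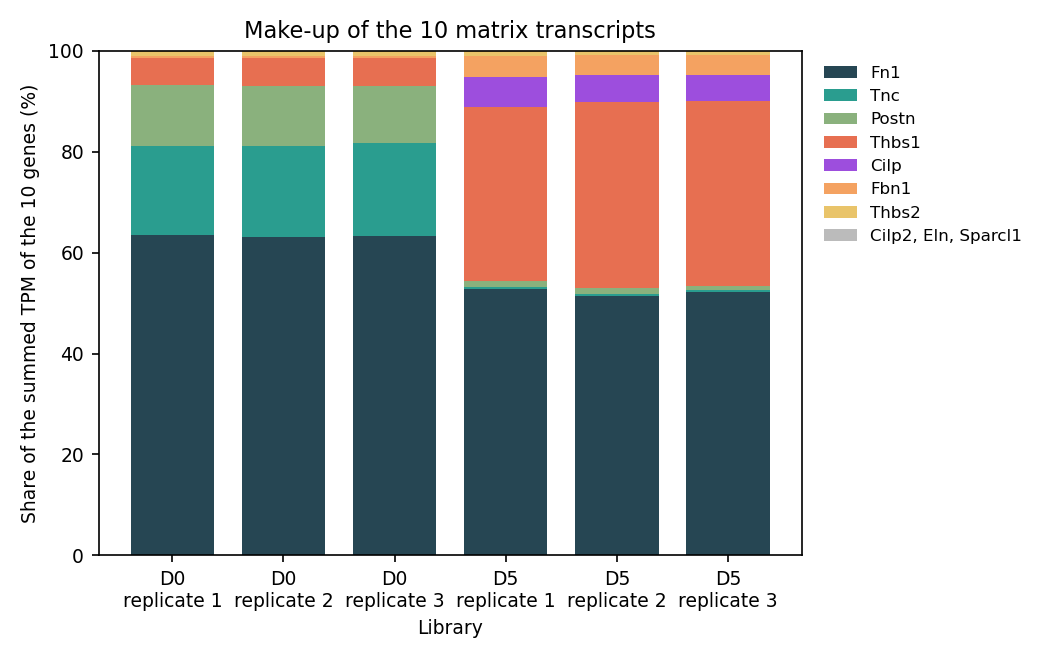
Share (percent) of each gene in the summed TPM of the 10 members, as 1 stacked bar per library. *Tnc* and *Postn* fill a visible part of the D0 bars only, and *Thbs1* fills 36.04% of the D5 bars on average.

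Ratios to *Fn1* in the same library are free of the scaling between libraries, and they give the change of a member relative to *Fn1* only. The TPM of *Tnc* over that of *Fn1* was 0.278, 0.287 and 0.290 at D0 and 0.00811, 0.00819 and 0.00813 at D5, a 35.0-fold lower ratio. The ratio of *Postn* to *Fn1* was 0.189, 0.190 and 0.177 at D0 and 0.0200, 0.0214 and 0.0173 at D5, 9.51-fold lower. *Thbs1* went the other way, from 0.0835, 0.0857 and 0.0872 to 0.654, 0.717 and 0.704, an 8.09-fold higher ratio. *Fbn1* over *Fn1* was 9.53-fold higher. None of these ratios overlapped between groups, but with 3 libraries per group the smallest two-sided p of an exact permutation test is 0.1.

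The other genes of these families, their receptors and the TGF-beta genes were described from lists of 83 genes, of which 69 were tested. Of these, 10 passed the filter only through their D5 counts, so that a higher direction was built into their selection, though not a call. Of the 59 with at least 10 counts in every library, 33 were higher, 25 lower and 1 without a call, and their median log2 fold change was 0.21, against -0.0057 for all 13713 such genes. Among all 13713, 83.5% were called, 5709 higher and 5748 lower, so a call by itself was common. The same share stands behind the counts for each list below. With those 10 the split was 43 higher and 25 lower, which became 34 and 33 without scaling and 26 and 14 with the ERCC spike-ins. An absolute log2 fold change of at least 2 was seen in 20 of the 59 (33.9%) and in 10.1% of all such genes. The lists too were chosen with earlier results of these data known, so this comparison is a description and not a test.

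Among the other matricellular families, *Thbs3* fell to 50.2% of D0 (log2 difference -0.99) and was the only further thrombospondin gene tested of 3. None of *Tnr*, *Tnn* and *Tnxb*, the other tenascins, passed the filter, and *Tnr*, the highest of them, had 0.107 TPM at D5. Of the 6 CCN genes, which encode growth-factor-binding matricellular proteins, 5 were tested, 2 higher and 3 lower. *Ctgf* fell from 1796 ± 43.2 to 58.5 ± 4.01 CPM (log2 difference -4.94), with *Cyr61* at -1.59 and *Wisp1* at -0.96, while *Wisp2* (5.61) and *Nov* (1.75) rose. In the SPARC family 1 of 4 tested was higher, *Spock2* (2.94), and 3 were lower: *Fstl1* (-1.26), *Smoc2* (-0.40) and the abundant *Sparc* (-0.21), which bind collagen or growth factors. Of the 5 further matricellular genes 3 were higher, among them *Tgfbi*, which passed the filter only through D5, and 2 lower: *Mgp*, which encodes matrix Gla protein, an inhibitor of calcification, rose from 3.14 to 161 CPM (5.68) and *Spp1*, which encodes osteopontin, by 2.19, while *Lgals1* (-0.66) and *Lgals3* (-0.12), which encode galectins, fell.

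Of the 8 genes tested for the elastic fibre core and microfibrils besides *Fbn1* and *Eln*, 3 passed the filter only through D5 (*Mfap2*, *Mfap4* and *Mfap5*). Their higher direction was thus built into their selection. The other 5 were 3 higher and 2 lower, with a median log2 fold change of 0.21, though *Ltbp1* turned to the lower side both without scaling and with the ERCC spike-ins. *Mfap5*, which encodes a microfibril-associated glycoprotein, had 14 reads over the D0 libraries and 1164 at D5 (log2 difference 7.01). The latent TGF-beta binding protein genes *Ltbp2* (6.29 to 132 CPM, 4.39) and *Ltbp3* (0.83) also rose, whereas *Ltbp4* (-0.82) and *Mfap3* (-0.15) fell. The fibulins and emilins, which link elastin to microfibrils and to cells, were split, with 3 of 8 higher and 5 lower, beside *Fbln7* and *Efemp1*, which passed the filter only through D5. The level of *Fbln7* went from 0.101 to 160 CPM, a fitted log2 difference of 10.59. *Fbln5* (0.631 to 91.4 CPM, 7.16) and *Emilin1* (3.99) rose, and *Hmcn2* (-2.55), *Efemp2* (-0.93) and *Fbln1* (-0.68) fell. *Fbln2*, which had the highest mean TPM of this list over all 6 libraries, was at -0.54. Of the 6 crosslinking enzyme genes 4 were higher, among them *Tgm2* (3.45), *Loxl3* (2.41) and *Loxl4* (2.22), and 2 were lower, *Loxl2* (106.9 to 4.56 CPM, -4.55) and *Loxl1* (-0.44), while *Lox*, also higher, turned to the lower side in those 2 scalings.

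Among the genes for fibronectin receptors 9 of 12 were higher and 3 lower, but *Itga3*, *Itgav*, *Sdc1* and *Sdc4* turned to the lower side in the same 2 scalings. A further pair, *Itga8* and *Itga9*, passed the filter only through D5. The classical fibronectin receptor pair fell, *Itga5* from 1159 ± 17.8 to 161 ± 1.10 CPM (log2 difference -2.84) and *Itgb1* by 0.78, whereas *Itga4* (3.14), *Itgb5* (2.17) and *Sdc2* (1.71) rose. The thrombospondin and tenascin receptor list had 4 of 5 genes higher, of which *Cd47* turned to the lower side in the 2 scalings, and none lower, beside *Cd36* and *Ptprb*, which passed the filter only through D5. *Calr* was without a call (log2 difference 0.03, adjusted p = 0.396 by edgeR). *Cd36*, a receptor for thrombospondin-1 and fatty acids, had 5 reads over the D0 libraries and 3428 at D5 (9.98), and *Stim1* (1.93) and *Lrp1* (689.5 to 2498 CPM, 1.86) rose. Of the 9 TGF-beta genes 5 were higher and 4 lower, with *Tgfbr3* (3.77), *Tgfb3* (2.19) and *Tgfbr2* (1.55) higher and *Tgfb2* (-1.89) and *Smad7* (-0.60) lower.

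**Figure D4:**
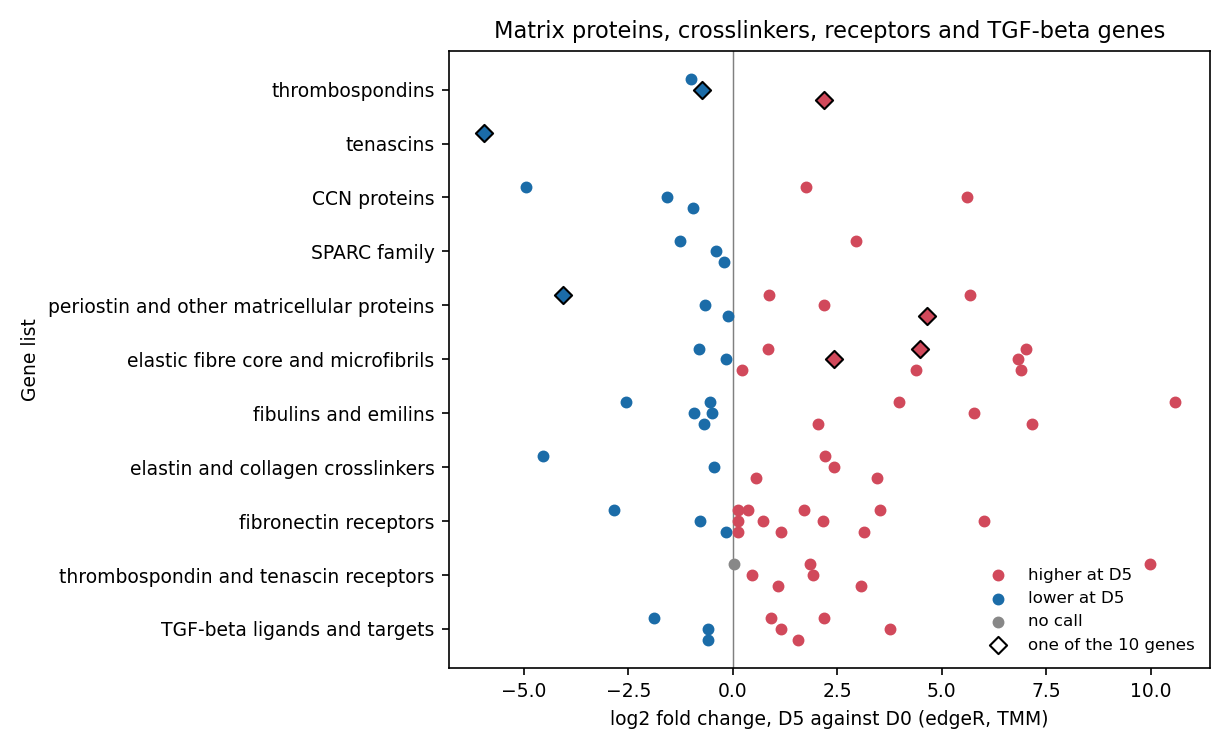
Log2 fold change (D5 against D0) of tested genes in the matrix, receptor and TGF-beta lists, 1 row per list, where diamonds mark *Thbs1*, *Thbs2*, *Tnc*, *Postn*, *Cilp2*, *Fbn1* and *Eln*. In the elastic fibre list the points farthest to the right are *Mfap2*, *Mfap4* and *Mfap5*, which passed the filter only through D5, and the CCN list extends to -4.94 with *Ctgf*.

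Markers of other cell types were read beside these genes. Of 8 fibroblast and fibro-adipogenic markers 7 were tested, 6 were higher at D5 (*Dpt*, *Pi16* and *Clec3b* passed the filter only through D5) and *Ly6a* had no call, and their summed level went from 37.0 to 40.1 CPM at D0 to 359 to 403 CPM at D5, most of it from *Dcn* (0.375 to 242 CPM), while *Tcf21* was at 0 in every library. These markers rose as *Cilp* and *Fbn1* did, and their part in the result was not tested. Of the 8 other elastic fibre genes tested, 6 were higher and 2 lower, and *Mfap2*, *Mfap4* and *Mfap5* among the 6 passed the filter only through D5. Tendon and cartilage markers summed to 139 to 143 CPM at D0 and 282 to 291 CPM at D5, with 4 of 5 tested higher (*Mkx* and *Prg4* passed only through D5, and *Sox9* turned in the 2 scalings) and *Scx* highest (88.3 to 212 CPM). The cartilage proteoglycan gene *Acan* was at 0 in every library. Smooth muscle markers summed to 3632 to 3771 CPM at D0 and 1167 to 1295 CPM at D5. Of 5 tested, 1 was higher (*Mylk*, 1.05 to 40.3 CPM), 3 were lower and *Smtn* had no call. The sum, led by *Acta2* (2858 to 1012 CPM), fell as *Tnc* and *Postn* did, and the part of these markers in the result was not tested. Bone markers had 1 of 2 tested genes higher (*Dmp1*, which passed only through D5) and 1 lower (*Runx2*, 111 to 42.2 CPM), with *Ibsp* at 0. Both endothelial markers tested, which passed the filter only through D0 (highest *Kdr*, 2.50 CPM at D0, with *Emcn* at 0) and the single macrophage marker tested (*Cd68*, 3.15 CPM at D0, with *Adgre1* at 0) were lower at D5. No adipocyte marker passed the filter, *Fabp4* had at most a mean of 0.149 CPM, and *Cidec* and *Lep* were at 0.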

How the data were processed

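RNA was sequenced from 3 C2C12 libraries at D0 and 3 at D5. The authors deposited raw counts of reads per gene from featureCounts on GRCm38 (mm10), without normalization. The labels name NGS-QC-Toolkit and Tophat2 and the methods of the study FastQC and HISAT2, and which made these counts is unsettled. Annotation release, strand setting and the handling of reads with several matches are not given in the sources used here, so a gene and its antisense partner cannot be told apart. Of the gene rows, 99.9% matched a GENCODE vM21 gene, used for positions and exonic length. The 92 ERCC rows (from 0.720% to 2.09% of counts) and an unnamed row equal to the column total were left out.

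From the deposited counts, TMM factors, CPM, log2 fold changes and p-values (quasi-likelihood test, all 6 libraries, filterByExpr, threshold 0.05) were obtained in R 4.3.3 from edgeR 4.0.16, and TPM from exonic length. In simulated data of 16290 genes, 99% of 2-fold changes were recovered, and 3.41% of calls were false. Whether these rates hold for the measured libraries, where 82.9% of genes were called and the split depended on scaling, was not tested. Replicates differed by more than sampling noise (chi-square divided by its degrees of freedom, 2.28 to 3.71). Exact 95% intervals cover counting error only, and the fold over the floor of 3 counts leaves out the counting error of the D5 reads. The members and lists were chosen with earlier results of these data known. Named were the members, in each list up to 3 genes with the largest change in each direction (called, at least 100 mean counts in a group, no overlap) and the gene with the highest TPM, the muscle markers, the highest gene of each other marker list, and the 5 genes nearest to *Cilp* and to *Fn1*. Alternatives were DESeq2 1.42.0, other scalings and filters, each library left out, and the replicate number as a block. Counts over genes with at least 10 counts in every library were chosen for the text after the data were seen. The values of 1 list gene are not reported here. Upstream sequences are from RefSeq.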

Additional observations from a re-analysis of the deposited data

How the results depend on the processing

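Scaling moved the counts over all genes and over the lists, and the filters those of the members. Without scaling 3353 genes were higher and 10953 lower (76.6% of calls lower, against 49.2% with TMM), with a median log2 fold change of all genes of -0.68. With the ERCC spike-ins 5560 genes were called, 1813 higher and 3747 lower (67.4% lower, median -0.58), and 40 list genes, 26 higher and 14 lower, against 68, 43 and 25 with TMM. The 6 members with at least 10 counts in every library kept their direction and their call in these fits. Their highest adjusted p was 0.039, for *Thbs2* (edgeR, ERCC spike-ins). The main fit also called *Cilp2* and *Eln*, whose rise was built into their selection and is not counted as support. With at least 10 counts in every library, 6 members were called in place of 8 and 2 called higher in place of 4, since *Cilp2* and *Eln* were no longer tested, and 33 list genes were higher in place of 43. Without a filter *Sparcl1*, with 0 reads at D0 and so unable to be lower, had a fitted log2 fold change of 5.79. DESeq2 called 12765 genes. Leaving out each library gave from 13236 to 13599 calls, and the fitted log2 fold change of *Eln* ranged from 3.91 to 5.31 and that of *Cilp* from 14.07 to 16.14. The value of 16.14 came from the fit without D0 replicate 3, where no D0 read of *Cilp* was left. The replicate block gave 13558 calls against 13510 and changed no call of a member. Same-numbered libraries of the 2 groups correlated in their deviations by 0.027, 0.104 and 0.047 for numbers 1, 2 and 3, so the numbers were not taken to pair the cultures, although each library correlated best with its own number. Depth limits *Cilp*, *Cilp2*, *Eln* and *Sparcl1* at D0, where 1, 14, 3 and 0 reads stand behind the values.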
